A study of Rattus norvegicus with 18 samples.

Results

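The miR-34 and miR-449a microRNAs (miRNAs) were followed in dorsal root ganglia (DRG) of rats, the clusters of sensory neuron cell bodies and glia beside the spinal cord. They were chosen by name, as every row of the count table named rno-miR-34a, rno-miR-34b, rno-miR-34c or rno-miR-449a, whichever arm of the precursor it came from. This gave 8 of the 753 listed miRNAs, 7 of which had at least 1 count and 6 of which passed the detection filter of more than 10 counts in at least 6 of 18 libraries, which 373 miRNAs passed in all. miR-34c-3p was below that filter, and miR-449a-3p had no count.

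Small RNA came from DRG of cervical levels 6 to 8 of 18 adult lister hooded rats, with 6 rats and 6 libraries in each of 3 groups. Naive rats were unoperated. The bPYX+GFP and bPYX+NT3 rats had a bilateral pyramidotomy (bPYX), in which both corticospinal tracts are cut in the medullary pyramids, and were studied 10 weeks later. A day after injury, forelimb flexor muscles on 1 side had received AAV serotype 1, an adeno-associated virus, encoding green fluorescent protein (GFP) or human neurotrophin-3 (NT3), a growth factor for muscle sensory and other neurons, under the CMV promoter, which is active in many cell types. All injured rats thus also carried a vector, and no uninjured group carried one, so injury and vector cannot be told apart against naive. Ganglia of the injected side were pooled within each rat. The sources used here do not give the sex of the rats.

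The miR-34 miRNAs and miR-449a share a seed, the short stretch at the start of a miRNA that pairs with its target messenger RNAs, and so have overlapping targets. Many of these targets promote the cell cycle or cell survival. Transcription of Mir34a and of the joint Mir34b and Mir34c transcript is induced by the tumour suppressor p53. In other tissues miR-34b, miR-34c and miR-449a are known for their high levels in multiciliated epithelia and testis, and miR-34a is the broadly expressed member that is also found in neurons. Each precursor is a hairpin with a 5p and a 3p arm, and usually one arm is kept in the effector complex while the other is degraded.

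The mature 5p sequences are shown because they define the family, with the seed (bases 2 to 8) in capitals, from RefSeq annotation of assembly GRCr8. miR-449c-5p is no member and is given as the remaining carrier of the seed.
rno-miR-34a-5p: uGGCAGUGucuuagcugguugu
rno-miR-34b-5p: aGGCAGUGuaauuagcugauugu
rno-miR-34c-5p: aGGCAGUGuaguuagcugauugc
rno-miR-449a-5p: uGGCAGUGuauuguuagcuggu
rno-miR-449c-5p: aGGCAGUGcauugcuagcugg

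Of the 688 listed miRNAs with a sequence in RefSeq, these 5 carried the seed GGCAGUG. miR-34b-5p and miR-34c-5p were identical at 21 of 23 positions, with the differences A11G and U23C (miR-34b-5p first, positions counted from the 5′ end). Without gaps, miR-34a-5p was identical to miR-449a-5p at 15 of 22 positions and to miR-34b-5p or miR-34c-5p at 11 of 22. With a gap of 1 base allowed, this order turned round, to 16 identical bases with miR-449a-5p, 19 with miR-34b-5p and 18 with miR-34c-5p.

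The 3p arms are shown because their seeds divide the family otherwise, again with bases 2 to 8 in capitals.
rno-miR-34b-3p: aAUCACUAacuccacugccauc
rno-miR-34c-3p: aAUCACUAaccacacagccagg
rno-miR-34a-3p: aAUCAGCAaguauacugcccua
rno-miR-449a-3p: cAGCUAACaugcaacugcucuc

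miR-34b-3p and miR-34c-3p shared the seed AUCACUA, which no other listed miRNA with a sequence carried, and were identical at 17 of 22 positions. The seeds of miR-34a-3p and miR-449a-3p were each different from it.

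The hairpins of the 3 miR-34 genes are shown because their arms were used differently, with the mature 5p arm and then the 3p arm in capitals.
Mir34a: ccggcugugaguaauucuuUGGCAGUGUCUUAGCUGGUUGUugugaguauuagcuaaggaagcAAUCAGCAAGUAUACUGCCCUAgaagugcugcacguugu
Mir34b: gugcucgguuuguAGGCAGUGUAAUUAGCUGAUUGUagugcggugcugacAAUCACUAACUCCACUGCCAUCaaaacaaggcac
Mir34c: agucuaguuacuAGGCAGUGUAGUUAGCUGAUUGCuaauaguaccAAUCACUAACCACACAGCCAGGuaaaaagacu

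In GRCr8, Mir34b and Mir34c are neighbours on one strand and both overlap the protein-coding gene Hoatz. Mir34a overlaps the long non-coding RNA gene LOC103692514, and Mir449a and its neighbour Mir449c overlap LOC134485839, also a long non-coding RNA gene. The counts were made on another build, Rnor_5.0, so positions are not given.

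The libraries held 3.88 to 6.92 M miRNA counts each (mean 4.70 ± 0.663 M, SD, n = 18). The authors left out 1 rat as an outlier from their miRNA analysis. Its library was not identified here, so levels, main fits and background shares use all 18 libraries. Of the marker lists, 6 of 7 neuronal miRNAs had counts, with summed levels of 32570 to 42450 counts per M (CPM) over all libraries. miR-182 and miR-96-5p, abundant in sensory neurons, were among the 4 that passed the filter. Of the others, miR-124-3p had 35 counts and miR-9a-5p 3 counts over the 18 libraries, and miR-183-5p, of the cluster of miR-182, was listed at 0. In whole ganglia, fewer cells of a type and less RNA per cell cannot be told apart. A cluster of X-linked miRNAs known from testis stood apart in naive replicate 1, with 4553 counts, of which miR-741-3p took 2517, and in bPYX+GFP replicate 4, with 880 counts, against 6 to 113 in the other libraries. Among the 6 tested members, neither library was the highest of its group for any, while naive replicate 1 was the lowest for miR-34b-3p and bPYX+GFP replicate 4 the lowest for miR-34a-5p. bPYX+NT3 replicate 3 had the lowest neuronal sum of all libraries, at 32570 CPM, and differed most from another library of its own group (chi-square of 513.9 per degree of freedom against bPYX+NT3 replicate 4). Results without these libraries are given below where a call changed.

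The family made up 0.0997% of all miRNA counts, and 82.1% of the family's counts were miR-34a-5p. Levels are given as CPM after TMM scaling, which sets libraries on one scale by their bulk of miRNAs. miR-34a-5p was at 818 ± 140.4 CPM (SD, n = 18) and ranked 71 of 373 tested miRNAs, on counts of 2592 to 5676 per library. miR-34c-5p was at 155.4 ± 17.5 CPM and ranked 139, on counts of 550 to 982. The other members were far lower: miR-34b-3p at 11.8 ± 1.52 CPM, miR-449a-5p at 5.47 ± 2.58 CPM, miR-34b-5p at 3.19 ± 0.894 CPM, miR-34a-3p at 2.21 ± 0.983 CPM and miR-34c-3p at 0.696 ± 0.379 CPM (SD, n = 18). Dividing by mature length, 22 or 23 bases, left this order of levels as it was.

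The upper part of the order held in each library. The lowest miR-34a-5p level, 637.7 CPM, was above the highest miR-34c-5p level, 187.6 CPM, and the means differed 5.26-fold. miR-34c-5p was likewise above miR-34b-3p in all 18 libraries, with means 13.2-fold apart. Below that, neighbours in the order overlapped. miR-34b-3p was above miR-449a-5p in 17 of 18 libraries, miR-449a-5p above miR-34b-5p in 15, miR-34b-5p above miR-34a-3p in 13 and miR-34a-3p above miR-34c-3p in 16.

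miR-449a-3p was listed at 0 in every library. Of the relatives on the Mir449c precursor, miR-449c-5p had 1 count, in bPYX+NT3 replicate 2, and miR-449c-3p was listed at 0. Since miR-183-5p was also listed at 0 beside 2116269 counts of miR-182, from the same cluster, an entry of 0 sets no limit on a level here.

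**Figure D1:**
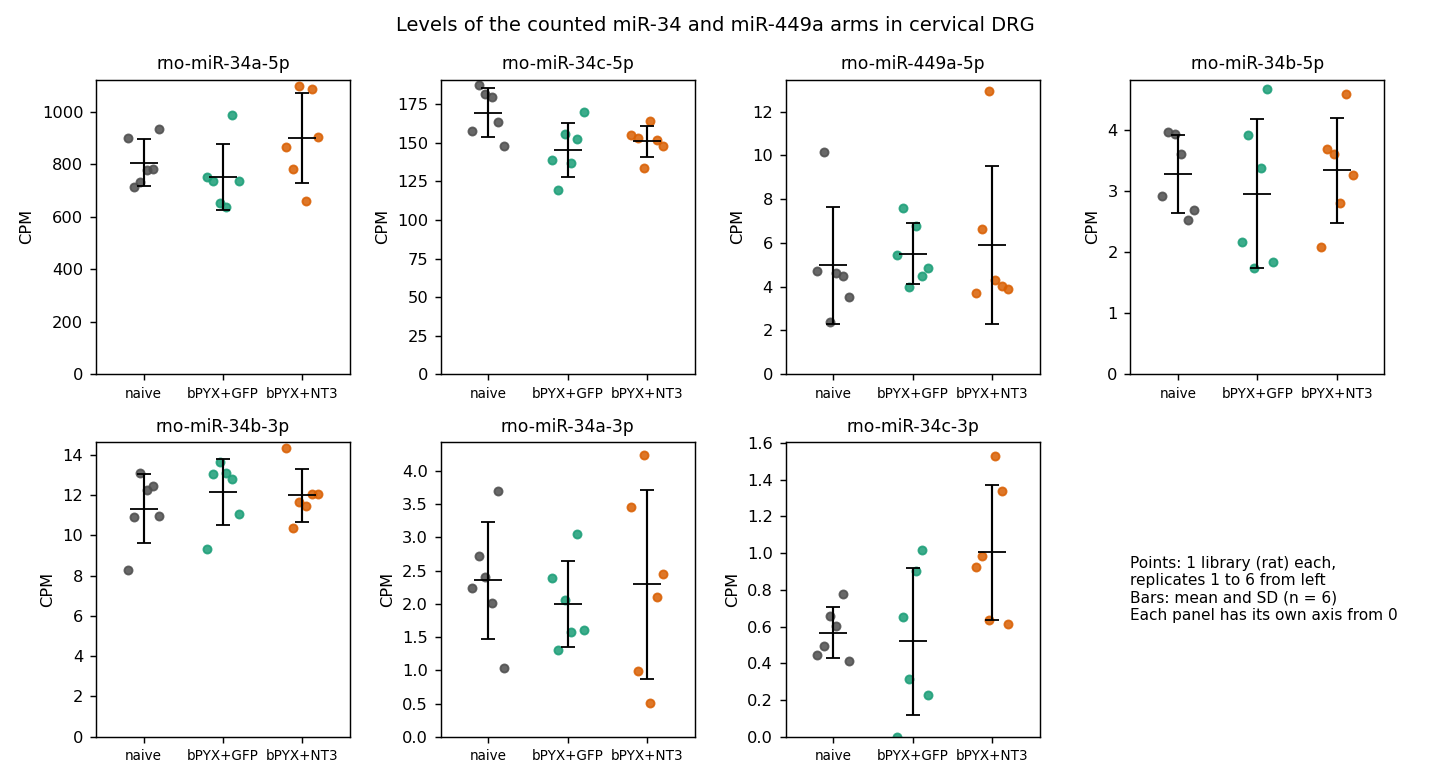
Level (CPM after TMM scaling) of each counted arm in every library, with 1 panel per miRNA, 1 point per rat and the mean and SD of each group of 6. Axes start at 0 and differ between panels. The groups overlap in each panel, miR-34c-5p has a naive mean of 169.7 CPM against 145.6 in bPYX+GFP, and single high points stand out for miR-449a-5p at 10.15 and 12.93 CPM.

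How far each level can be read depends on its counts. The coefficient of variation over the 18 libraries was 17.2% for miR-34a-5p and 11.2% for miR-34c-5p, where counting error alone gives 1.61% and 3.71%. Counting error is only a lower bound for reads without molecular identifiers. For miR-34b-3p it was 12.8% against 13.4% from counting, and for miR-34b-5p 28.0% against 25.9%. Within groups, miR-34b-5p varied by 41.1% against 26.6% from counting with bPYX+GFP, by 19.5% against 25.7% in naive rats and by 25.6% against 25.5% with bPYX+NT3. miR-449a-5p varied by 47.3% against 19.9% from counting, the largest excess among the low members.

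The seed was carried almost wholly by a pair of miRNAs. miR-34a-5p and miR-34c-5p together held 99.1% of the counts with seed GGCAGUG. The share of miR-34a-5p was 83.0 ± 2.94% (SD, n = 18) and that of miR-34c-5p 16.1 ± 2.90%. miR-449a-5p held 0.564 ± 0.253% and miR-34b-5p 0.326 ± 0.0869%. By group, miR-34a-5p held 81.7 ± 3.01% in naive rats, 82.8 ± 2.40% with bPYX+GFP and 84.5 ± 3.14% with bPYX+NT3 (SD, n = 6), with ranges that overlapped.

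The summed level of the seed was 983 ± 74.5 CPM in naive rats, 904 ± 129.6 CPM with bPYX+GFP and 1059 ± 165.9 CPM with bPYX+NT3 (SD, n = 6). It ran from 784.9 CPM in bPYX+GFP replicate 4 to 1248 CPM in bPYX+NT3 replicate 3, and the ranges of the groups overlapped. The ratio of miR-34a-5p to miR-34c-5p was 4.82 ± 0.996 in naive rats, 5.20 ± 0.962 with bPYX+GFP and 6.03 ± 1.49 with bPYX+NT3. Its highest value, 8.19, was in bPYX+NT3 replicate 3, which had the highest miR-34a-5p and the lowest miR-34c-5p of its group and also the lowest neuronal sum. The part of that library in the ratio was not tested.

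Arm use set Mir34b apart from the other precursors. Mir34a gave 69246 counts on the 5p arm and 189 on the 3p arm, or 99.7% 5p (exact 95% binomial interval 99.69 to 99.77%). Mir34c gave 13101 and 58, or 99.6% 5p (99.4 to 99.7%). Mir34b gave 268 and 1003, so that 21.1% of its counts were 5p (18.9 to 23.4%), and its 3p arm was the higher in 18 of 18 libraries.

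The bias of Mir34b towards 3p was found in each group, with 22.5 ± 3.73% 5p in naive rats, 19.1 ± 5.65% with bPYX+GFP and 21.9 ± 5.39% with bPYX+NT3 (SD, n = 6). The groups overlapped, and single libraries ran from 11.3% to 27.6%. The intervals on pooled counts cover counting error only. As the printed sequences show, the 5p arms of Mir34b and Mir34c differ only by A11G and U23C. The counts of miR-34b-5p were 2.05% of those of miR-34c-5p (1.09 to 3.27% by library), and how much of either was read from the other was not tested.

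**Figure D2:**
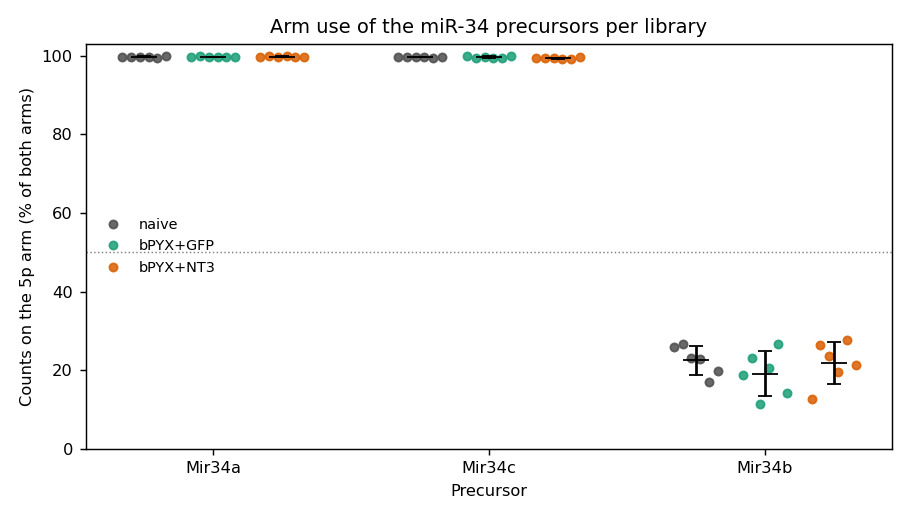
Share of counts on the 5p arm (%, of both arms together) for the 3 miR-34 precursors, with 1 point per library and the mean and SD of each group of 6. The dotted line marks equal use. All points of Mir34a and Mir34c lie above 99%, and those of Mir34b between 11.3% and 27.6%.

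The mature miRNAs of the joint transcript of Mir34b and Mir34c had unequal counts. Whether different sequences were captured equally was not tested. Counting both arms, miR-34c was 10.6 ± 1.8 times miR-34b (SD, n = 18), from 7.09 to 14.1. The ratio was 11.8 ± 1.35 in naive rats, 9.94 ± 2.32 with bPYX+GFP and 9.98 ± 1.10 with bPYX+NT3, with overlapping ranges. The arms differed in direction. For 5p, miR-34c was 53.1 ± 18.2 times miR-34b, whereas for 3p the summed counts of miR-34b were 17.3 times those of miR-34c.

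What differs in cervical DRG after the injury was asked by setting bPYX+GFP beside naive rats. A member was called where its unadjusted p was under 0.05 by edgeR's quasi-likelihood test. Of the 6 tested members 1 was called, miR-34c-5p, and it was lower. Among all 373 tested miRNAs 21.2% passed this criterion and 2.41% passed a Benjamini-Hochberg adjusted p under 0.05, which no member did. The share of members was thus near the background.

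miR-34c-5p, the more abundant product of the Mir34b and Mir34c transcript, ran from 147.8 to 187.6 CPM in naive rats, with a median of 171.6. In bPYX+GFP rats it ran from 119.7 to 169.8 CPM, with a median of 145.6. The groups overlapped: the naive mean was above 5 of 6 bPYX+GFP libraries, 3 of which were below every naive library. The means were 169.7 ± 15.7 and 145.6 ± 17.5 CPM (SD, n = 6), a log2 fold change of -0.22 ± 0.10 (SE; 95% interval -0.42 to -0.02; edgeR adjusted p = 0.225). An exact two-sided permutation test of its mean log2 CPM over all 924 arrangements of the labels, added after the data had been seen, gave p = 0.0325, unadjusted for the 18 such tests of 6 members in 3 comparisons.

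This difference kept its direction in all 21 alternative fits, with log2 fold changes from -0.27 to -0.17, but it was called in 11 of them. The call was lost in 10. These included leaving out any of naive replicates 2, 3, 4 and 5, or of bPYX+GFP replicates 1, 2 and 4, library size as the only scaling, and the likelihood ratio test. It was kept without naive replicate 1, which stood apart in the X-linked cluster (log2 fold change -0.24; edgeR adjusted p = 0.216). Over the alternatives the adjusted p ran from 0.152 to 0.395.

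miR-34a-5p ran from 712.5 to 932.1 CPM in naive (median 778.1) and from 637.7 to 987.9 CPM in bPYX+GFP rats (median 735.1). Of the 6 bPYX+GFP libraries, 5 lay under the mean of the naive rats, while replicate 5, at 987.9 CPM, was above every naive library. The log2 fold change was -0.10 ± 0.10 (SE; 95% interval -0.32 to 0.12; edgeR adjusted p = 0.639; exact permutation p = 0.342). Without bPYX+GFP replicate 5 it was -0.22 and was called (edgeR adjusted p = 0.185). It was -0.056 without bPYX+GFP replicate 3 or naive replicate 6 and -0.06 without bPYX+GFP replicate 4, and was not called.

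The low arms had wider intervals. miR-34b-3p was at 8.29 to 13.1 CPM in naive and 9.34 to 13.6 CPM in the bPYX+GFP group (log2 fold change 0.10 ± 0.13; 95% interval -0.18 to 0.38; edgeR adjusted p = 0.710). miR-449a-5p was at 2.40 to 10.15 and 3.97 to 7.62 CPM (0.16 ± 0.28; -0.45 to 0.76; edgeR adjusted p = 0.834). In both arms the bPYX+GFP range lay mostly within the naive one. With 1 library left out in turn, the value of miR-449a-5p ran from 0.02 to 0.47, the latter without naive replicate 2, and that of miR-34b-3p from 0.03 to 0.17.

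miR-34b-5p, at 2.53 to 3.96 CPM in naive and 1.75 to 4.68 CPM in bPYX+GFP rats, had a log2 fold change of -0.15 ± 0.27 (95% interval -0.73 to 0.43; edgeR adjusted p = 0.833). miR-34a-3p, at 1.03 to 3.70 and 1.31 to 3.05 CPM, had one of -0.22 ± 0.31 (-0.89 to 0.45; edgeR adjusted p = 0.759). With 1 library left out these ran from -0.35 to -0.01 and from -0.40 to -0.03, and none of the low arms was called. In this comparison a log2 fold change of 1 in either direction lay outside the intervals of all 6 members. The median log2 fold change of the 6 members was -0.13, beside 0.00 over all tested miRNAs.

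**Figure D3:**
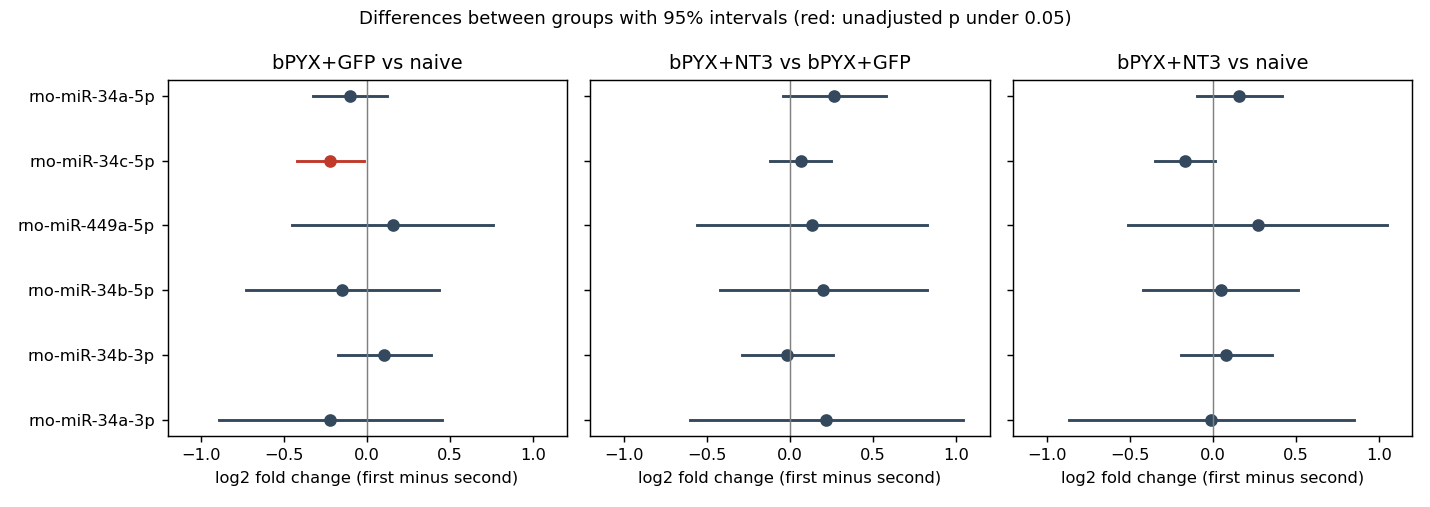
Log2 fold change (point) and 95% interval (line) of the 6 tested members in the 3 comparisons, with the first-named group minus the second. Red marks an unadjusted p under 0.05, which holds only for miR-34c-5p in bPYX+GFP against naive, at -0.22. The intervals of miR-449a-5p, miR-34b-5p and miR-34a-3p are the widest.

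Setting bPYX+NT3 beside bPYX+GFP rats asked what NT3 changes after injury. By edgeR's quasi-likelihood test, 0 of 6 members passed an unadjusted p under 0.05, against 8.58% of all tested miRNAs, and 0 passed an adjusted p, as did 0% of all. The edgeR likelihood ratio test and the DESeq2 Wald test also called 0 members at either threshold, whereas a fit of all 3 groups together called 1, miR-34a-5p.

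Among the tested members the largest difference was in miR-34a-5p, the main carrier of the seed. It ran from 659.4 to 1097 CPM in bPYX+NT3 rats, with a median of 884.8, beside 637.7 to 987.9 CPM in bPYX+GFP rats. The groups overlapped, although 5 of 6 bPYX+NT3 libraries were above the bPYX+GFP mean and replicates 3 and 5 were above every bPYX+GFP library. The means were 898.9 ± 171.6 and 749.9 ± 125.7 CPM (SD, n = 6), a log2 fold change of 0.27 ± 0.15 (SE; 95% interval -0.04 to 0.58; edgeR adjusted p = 0.617; exact permutation p = 0.123).

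Single libraries moved the value of miR-34a-5p in both directions. The log2 fold change was 0.37 without bPYX+GFP replicate 5 (edgeR adjusted p = 0.284) and 0.34 without bPYX+NT3 replicate 4 (edgeR adjusted p = 0.248), and either made it a call. It was 0.18 without bPYX+NT3 replicate 3 (edgeR adjusted p = 0.842). In the fit of all 3 groups together, where it was called, it was 0.26 (edgeR adjusted p = 0.440). Over all 21 alternatives the adjusted p ran from 0.248 to 0.842.

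miR-34c-5p ran from 134.0 to 164.3 CPM in bPYX+NT3 rats, with a median of 152.6, within the range of the bPYX+GFP group. The log2 fold change was 0.06 ± 0.09 (SE; 95% interval -0.12 to 0.25; edgeR adjusted p = 0.849). With 1 library left out it ran from 0.027, without bPYX+GFP replicate 2, to 0.093, without bPYX+GFP replicate 6, and was not called. For the 4 low arms the log2 fold changes between the injured groups were 0.22 ± 0.39 for miR-34a-3p, 0.20 ± 0.29 for miR-34b-5p, 0.13 ± 0.33 for miR-449a-5p and -0.02 ± 0.13 for miR-34b-3p (SE). Without bPYX+NT3 replicate 3 that of miR-34a-3p was -0.08 and that of miR-449a-5p -0.30. That of miR-34b-5p ran from 0.058 without bPYX+GFP replicate 3 to 0.39 without bPYX+GFP replicate 5. Their edgeR adjusted p ran up to 0.979, and all groups overlapped. The median over the 6 members was 0.17, and over all tested miRNAs it was 0.00.

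**Figure D4:**
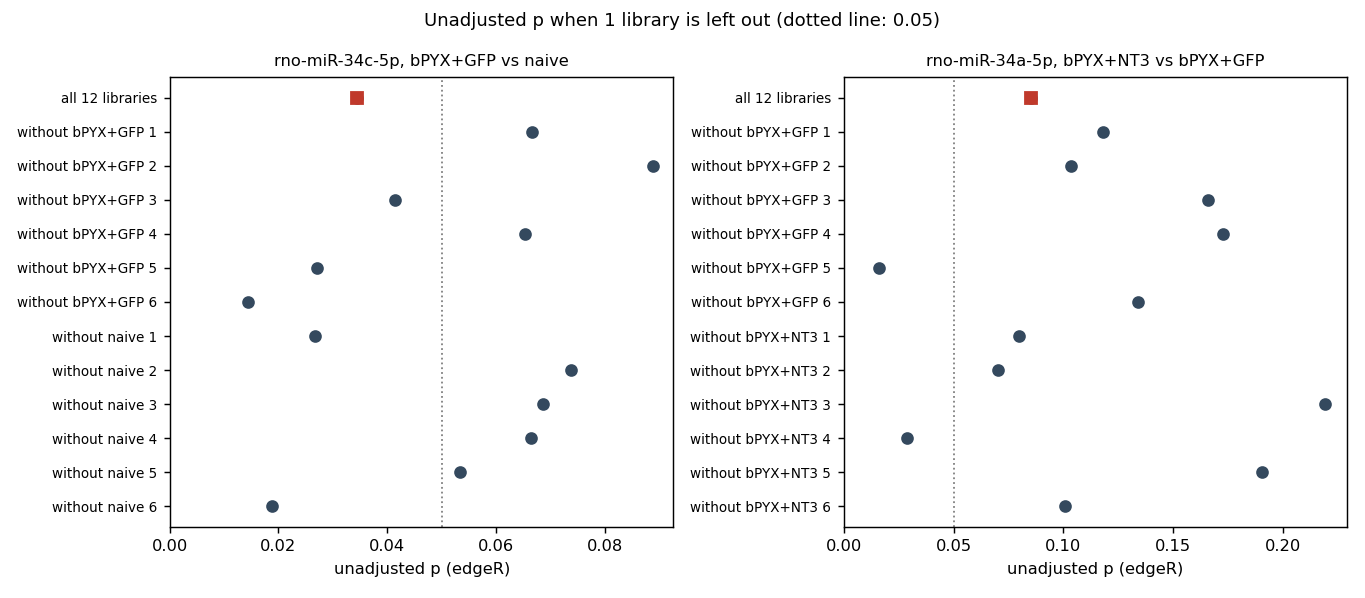
Unadjusted edgeR p (horizontal axis) with all 12 libraries (red square) and with each library left out in turn (points), for miR-34c-5p in bPYX+GFP against naive and for miR-34a-5p in bPYX+NT3 against bPYX+GFP. The dotted line is at 0.05. For miR-34c-5p 5 of 12 points lie below it, and for miR-34a-5p 2 of 12, those without bPYX+GFP replicate 5 and without bPYX+NT3 replicate 4.

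The third comparison, bPYX+NT3 against naive, shares its libraries with the others. By edgeR's quasi-likelihood test 0 of 6 members passed an unadjusted p under 0.05, against 13.7% of all tested miRNAs, and 0 passed an adjusted p, as did 0% of all. The likelihood ratio and DESeq2 tests also called 0 members. miR-34c-5p was below the naive mean in 6 of 6 bPYX+NT3 libraries, and 1 of them was below every naive library. Its log2 fold change was -0.17 ± 0.09 (SE; 95% interval -0.35 to 0.01; edgeR adjusted p = 0.353), which was no call by edgeR, while the exact permutation test of its mean log2 CPM gave an unadjusted p = 0.0455.

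miR-34a-5p had a log2 fold change of 0.16 ± 0.12 against naive (SE; 95% interval -0.10 to 0.41; edgeR adjusted p = 0.580; exact permutation p = 0.284), with 4 of 6 bPYX+NT3 libraries above the naive mean. Leaving out bPYX+NT3 replicate 4 gave 0.26 (edgeR adjusted p = 0.240), and leaving out naive replicate 6 gave -0.19 for miR-34c-5p (edgeR adjusted p = 0.352) and each was then a call. For miR-34a-5p, leaving out bPYX+NT3 replicate 3 gave 0.094 and leaving out replicate 5 gave 0.098. The low arms lay at 0.27 ± 0.37 for miR-449a-5p, 0.08 ± 0.13 for miR-34b-3p, 0.05 ± 0.22 for miR-34b-5p and -0.01 ± 0.40 for miR-34a-3p (SE). The value of miR-449a-5p rested on single libraries, at -0.13 without bPYX+NT3 replicate 3 and 0.58 without naive replicate 2. That of miR-34b-3p ran down to 0.005 without naive replicate 1 and that of miR-34b-5p to -0.073 without bPYX+NT3 replicate 5.

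For none of the 6 members were the libraries of a pair of groups without overlap. Over all tested miRNAs this held for 4.02% in bPYX+GFP against naive, 0% in bPYX+NT3 against bPYX+GFP and 1.34% in bPYX+NT3 against naive, so that a count of 0 among 6 is near the background.

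miR-34c-3p, which was not tested with the others, had 2 to 4 counts in naive libraries, 0 to 5 with bPYX+GFP and 3 to 7 with bPYX+NT3, or 16, 15 and 27 counts in all. Its 6 bPYX+NT3 libraries were each above the mean of either other group, but the counts overlapped. In a fit with no detection filter the log2 fold change of miR-34c-3p in bPYX+NT3 rats was 0.91 ± 0.53 against bPYX+GFP (SE; edgeR adjusted p = 0.629). Against naive it was 0.80 ± 0.35 (SE; edgeR adjusted p = 0.404), and miR-34c-3p was not called in any comparison.

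Members were next compared with each other across the 18 libraries, as 15 pairs of log2 CPM. No pair had a permutation p under 0.05 by Pearson's r or Spearman's rho, and the lowest adjusted p was 0.772 for r and 0.756 for rho. The highest r was between both arms of Mir34a, at 0.43 (permutation p = 0.0741; rho = 0.39, p = 0.107). It was 0.33 without bPYX+NT3 replicates 2 and 4, and within groups it was -0.66 among naive, 0.68 among bPYX+GFP and 0.82 among bPYX+NT3 rats.

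miR-34b-5p and miR-34c-5p, from one transcript, had an r of -0.04 (permutation p = 0.862; rho = -0.03, p = 0.915). It was 0.07 without bPYX+GFP replicates 3 and 6, and 0.89, -0.53 and -0.35 within naive, bPYX+GFP and bPYX+NT3. Both arms of Mir34b had an r of 0.07 (permutation p = 0.796; rho = 0.02, p = 0.955), and -0.16 without naive replicate 1 and bPYX+GFP replicate 1, with 0.27, 0.39 and -0.63 within the groups. A relation of the miR-34b arms with other miRNAs is limited by their counting error, given above.

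miR-34a-5p and miR-34c-5p, the carriers of most seed counts, had an r of -0.22 (permutation p = 0.377; rho = -0.34, p = 0.162), and -0.07 without bPYX+NT3 replicates 3 and 5. Within groups r was -0.94 among naive, 0.15 among bPYX+GFP and -0.79 among bPYX+NT3 rats, with 6 rats each. Between miR-34c-5p and miR-449a-5p r was -0.35 (permutation p = 0.154), and -0.62 without bPYX+GFP replicate 2 and naive replicate 2. Within groups that pair had an r of 0.33 among naive, -0.84 among bPYX+GFP and -0.76 among bPYX+NT3 rats.

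For each member the 2 tested miRNAs with the most similar pattern over the 18 libraries are given by Spearman's rho, as a description of libraries that share depth and scaling. For miR-34a-5p they were miR-133b-3p (0.83), known from muscle, and miR-326-3p (0.79). For miR-34c-5p they were miR-455-5p (0.80) and miR-493-3p (0.78). Against naive, miR-455-5p had log2 fold changes of -0.28 ± 0.11 in bPYX+GFP (edgeR adjusted p = 0.190) and -0.41 ± 0.14 in bPYX+NT3 rats (edgeR adjusted p = 0.191), both called. miR-493-3p had -0.19 ± 0.09 (edgeR adjusted p = 0.247), not called, and -0.35 ± 0.16 (edgeR adjusted p = 0.349), called. Both were picked for their likeness to miR-34c-5p in these libraries, so their direction is not independent of it.

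Of the muscle list, 2 of 4 miRNAs had counts, and its summed level was 98.97 to 179.2 CPM in naive rats, 71.5 to 335.1 CPM with bPYX+GFP and 84.5 to 265.5 CPM with bPYX+NT3, with miR-1-3p and miR-133a-3p listed at 0. By group, the sum was highest in naive replicate 2, bPYX+GFP replicate 3 and bPYX+NT3 replicate 1, where miR-34a-5p ranked 6, 5 and 4 of 6. It was lowest in naive replicate 3, bPYX+GFP replicate 4 and bPYX+NT3 replicate 4, where miR-34a-5p ranked 5, 6 and 6 of 6. The more abundant member, miR-206-3p, had means of 95.2 CPM in naive rats, 136.7 CPM with bPYX+GFP and 111.5 CPM with bPYX+NT3. It was highest in the group where miR-34a-5p was lowest. The other, miR-133b-3p, went the other way, with means of 40.7, 40.2 and 46.3 CPM. It was lowest with bPYX+GFP and highest with bPYX+NT3, as miR-34a-5p was. As the nearest pattern of miR-34a-5p in these libraries, miR-133b-3p is not independent of it. The part of muscle in the pattern of miR-34a-5p was not tested. The fibroblast list, 2 of 2 with counts, was at 1595 to 2412, 1350 to 1826 and 1512 to 1802 CPM in the same groups. These ranges overlapped as those of miR-34c-5p did. Its more abundant member, miR-199a-5p, had means of 1653, 1426 and 1439 CPM, highest in naive rats and lowest with bPYX+GFP, as miR-34c-5p was. The other, miR-214-3p, had means of 222.5, 215.8 and 224.2 CPM, highest with bPYX+NT3. The part of fibroblasts in the level of miR-34c-5p was not tested.

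The nearest patterns of the low arms were less close, apart from miR-449a-5p. They were miR-582-3p (0.65) and miR-23b-3p (0.63) for miR-34a-3p, miR-362-5p (0.60) and miR-15b-5p (0.57) for miR-34b-5p, and miR-431 and miR-181a-2-3p (0.54 each) for miR-34b-3p.

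miR-449a-5p, the only product of the Mir449a and Mir449c genes above the filter, was nearest to miR-223-3p (0.79) and miR-142-3p (0.66), which are known from myeloid cells and from blood cells in general. With miR-223-3p, rho was 0.94 among naive, 0.77 among bPYX+GFP and 0.83 among bPYX+NT3 rats. The highest miR-449a-5p level, 12.9 CPM on 61 counts, was in bPYX+NT3 replicate 3, and the next, 10.1 CPM on 41 counts, in naive replicate 2. The same libraries were the highest and second highest for miR-223-3p, at 281.5 and 197.0 CPM. miR-223-3p was picked for its likeness to miR-449a-5p in these libraries. Its top libraries and its rho within groups are thus not independent of that choice.

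By its sum, the blood list, 5 of 5 with counts, did not place those libraries first. Its summed level was 313.9 to 953.8 CPM in naive rats, 450.1 to 1056 CPM with bPYX+GFP and 493.6 to 1400 CPM with bPYX+NT3. bPYX+NT3 replicate 3, at 880.8 CPM, ranked 2 of 6 in its group, and naive replicate 2, at 708.5 CPM, ranked 4 of 6. The sum was mostly miR-451-5p, with means of 351.7, 441.3 and 462.6 CPM in naive, bPYX+GFP and bPYX+NT3 rats. The next member, miR-223-3p, had 146.3, 152.3 and 165.1 CPM. miR-142-3p was highest of its group in bPYX+NT3 replicate 3, at 52.4 CPM. In naive replicate 2 it was at 36.9 CPM, below naive replicate 4 at 56.4 CPM. The part of blood cells in the level of miR-449a-5p was not tested. The epithelial list, whose tissues are known for miR-449a, was at 15.3 to 39.2 CPM in all libraries.

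**Figure D5:**
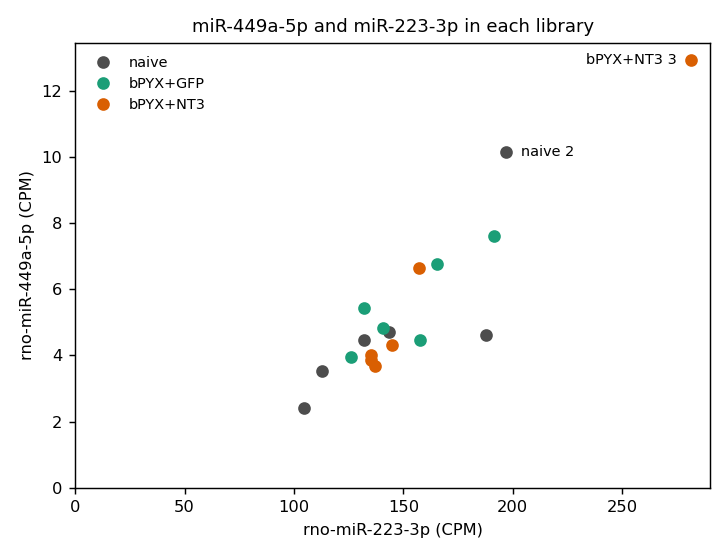
Level of miR-449a-5p against that of miR-223-3p (CPM, linear axes from 0), with 1 point per library coloured by group. bPYX+NT3 replicate 3 (281.5 and 12.93 CPM) and naive replicate 2 (197.0 and 10.15 CPM) lie at the upper right. Spearman's rho over the 18 libraries was 0.79, and miR-223-3p was picked for having the highest rho with miR-449a-5p.

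Other miRNAs linked to p53 were listed beside the family, since p53 induces the miR-34 genes: miR-192-5p, miR-194-5p, miR-143-3p, miR-145-5p, miR-16-5p, miR-107-3p, miR-200c-3p and miR-141-3p. Of these 8, 7 were tested and 1 passed an unadjusted p under 0.05 in each comparison. miR-145-5p was lower in bPYX+GFP than in naive ganglia, at -0.50 ± 0.14 on the log2 scale (SE; edgeR adjusted p = 0.0742) and higher in bPYX+NT3 than in bPYX+GFP rats (0.40 ± 0.16; edgeR adjusted p = 0.442). These comparisons share the bPYX+GFP libraries.

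miR-192-5p was lower in bPYX+NT3 than in naive rats (-0.20 ± 0.09; edgeR adjusted p = 0.349). The median log2 fold change of the list was 0.01, 0.00 and -0.01 in the comparisons of bPYX+GFP with naive, bPYX+NT3 with bPYX+GFP and bPYX+NT3 with naive, beside 0.00, 0.00 and -0.01 over all tested miRNAs. The calls in this list, 1 of 7 each, thus lay near the background shares given above.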

How the data were processed

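The authors trimmed adapters, aligned reads of a NEBNext small RNA library to Rnor_5.0 with Bowtie2 and counted them with HTSeq; base calls were made with bcl2fastq 1.8.4, per the labels. The deposited values are raw counts per mature miRNA, with no normalization and no molecular identifiers stated. Reads of too low alignment quality were 31.4 ± 1.88% of a library (SD, n = 18), 27.2% were not aligned and 34.9% were given to miRNAs. The paper states a far higher share of reads mapped to miRNA features, and why the shares differ was not tested. In the fits, 5 rows of totals were left out. The lowest chi-square between libraries of one group, divided by its degrees of freedom, was 37.4, and each rat was counted once.

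For a comparison, the 12 libraries concerned were analysed in R 4.3.3 by edgeR 4.0.16 (TMM, quasi-likelihood F test, Benjamini-Hochberg over 373 miRNAs). The SE was taken from the F statistic. The code was tested on simulated data. Correlations used log2 CPM with 0.5 added and 100000 permutations. Named besides the members were the 2 nearest patterns per member, miR-449c, p53-linked miRNAs with a call, and miR-741-3p. In their own miRNA analysis the authors left out 1 library as an outlier after quality control. The paper gives its rat number, but the labels used here give no rat numbers. No match by its counts was made, so all 18 libraries were fitted and each was left out in turn. Members and lists were chosen with earlier results of these data known. Alternatives were other scalings (median of ratios, library size), filters (none, more than 100 counts), tests (likelihood ratio, DESeq2 1.42.0), a robust prior, all groups together, a replicate block and leaving out each library. The exact permutation test was added after the data had been seen.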

Additional observations from a re-analysis of the deposited data

Results flagged for a closer look

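In 3 of 24 groups of 6 rats tested over 8 measures, 1 rat lay far from the others of its group, with a gap to the nearest above the 95% critical value of Dixon's test; chance gives about 1 in 20 groups, or 1.2 here. miR-34a-5p was at 987.9 CPM in bPYX+GFP replicate 5, with the next rat at 750.7 CPM. miR-449a-5p was at 10.15 CPM in naive replicate 2, with the next at 4.70 CPM. miR-449a-5p was also at 12.93 CPM in bPYX+NT3 replicate 3, with the next at 6.65 CPM.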

How the results depend on the processing

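In bPYX+GFP against naive, 1 member was called, and 0 were with library size only, with the edgeR likelihood ratio test or with the replicate block; leaving out 1 library gave 0 to 2. In bPYX+NT3 against bPYX+GFP, 1 was called, miR-34a-5p, with all 3 groups fitted together or with the replicate block, and leaving out 1 library gave 0 to 1, as it did in bPYX+NT3 against naive, where the added exact permutation test called 1, miR-34c-5p. The lowest adjusted p of a member in any fit was 0.152. Some log2 fold changes changed sign, none of them called. That of miR-34b-3p in bPYX+NT3 against bPYX+GFP was 0.02 with library size only and -0.09 to 0.022 with 1 library left out, where miR-34a-3p ran from -0.076 to 0.41 and miR-449a-5p from -0.30 to 0.27; the difference in mean log2 CPM of miR-449a-5p was -0.018. In bPYX+NT3 against naive, miR-34a-3p was at 0.003 with median-of-ratios factors, 0.067 with library size only and -0.27 to 0.20 with 1 library left out, where miR-34b-5p ran from -0.073 to 0.19 and miR-449a-5p from -0.13 to 0.58. The negative ends for miR-449a-5p, and for miR-34a-3p in both comparisons, came without bPYX+NT3 replicate 3. The cause was not tested. With library size only, 41 of 54 calls over all miRNAs in bPYX+NT3 against naive were higher, beside 27 of 51. The filter of more than 100 counts left miR-34a-5p and miR-34c-5p. Equal replicate numbers showed no clear pairing of the rats, although 6 pairs per comparison cannot exclude one. Correlations of same-numbered libraries ran from -0.38 to 0.37, and in each comparison 2 of 6 were highest with their own number. Levels without TMM (21 of 21) and seed shares with 1 library left out (72 of 72) stayed within 1 SD. Low counts limit miR-34b-5p, miR-34a-3p and miR-34c-3p.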
